A study of Bos taurus with 8 samples.

Results

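The secreted Wnt antagonists were compared between chondrocytes from the superficial zone (SZCs) and the deep zone (DZCs) of bovine articular cartilage. The set was a list of 10 genes, *WIF1*, *SFRP1*, *SFRP2*, *SFRP4*, *SFRP5*, *FRZB*, *DKK1*, *DKK2*, *DKK3* and *SOST*, looked up by gene name among the 24596 genes of the count table. A row was found for 9 of them, and *SOST* is not analysed here. Some rows of the table carry no gene name, so a gene without a match may still be among them. Chondrocytes of both zones came from the knee joints of wild-type calves between 1 and 2 weeks of age, were released from the cartilage by enzyme digestion, and were kept for 3 days in DMEM/F12 with fetal bovine serum before RNA was sequenced. SZCs came from the thin outermost slice of cores drilled from the joint surface, and DZCs from a slice of the same cores below a discarded middle layer. Each zone gave 2 RNA-Seq libraries, described by the study as duplicate biological samples, and no treatment was applied to either zone. The libraries therefore report cultured cells of newborn cartilage and not the tissue itself.

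Wnt proteins are secreted signals that bind Frizzled receptors together with the co-receptors LRP5 and LRP6, which stabilises beta-catenin and switches on target genes. Secreted antagonists act outside the cell. Wnt inhibitory factor, the product of *WIF1*, and the secreted Frizzled-related proteins, the products of the *SFRP* genes and of *FRZB* (also called sFRP3), bind Wnt proteins themselves. The Dickkopf proteins made from *DKK1* and *DKK2*, and sclerostin made from *SOST*, bind the LRP co-receptors instead. In joints, Wnt signalling has been linked to keeping articular chondrocytes apart from the growth plate fate, and *FRZB* is long known as a cartilage gene.

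Library totals ranged from 19918970 to 21890549 counts. Levels are given in CPM, counts scaled to library size after correction by the trimmed mean of *M* values (TMM), and 3 counts, the floor used here, correspond to between 0.129 and 0.187 CPM. SZCs were compared with DZCs by edgeR's exact test, and a gene was called when its Benjamini–Hochberg adjusted p-value (FDR) over all 12857 genes tested was below 0.05. The zone labels were checked with known genes. *PRG4*, which encodes the joint lubricant lubricin, and *CREB5*, a transcription factor gene, were higher in SZCs by 6.08 ± 0.70 and 4.61 ± 0.46 (log2 fold change ± SE). All 6 superficial zone markers examined were called higher in SZCs, although the study chose such genes on these libraries. *COL2A1*, the main cartilage collagen, held between 6.31% and 24.5% of the counts of a library, and *SOX9* and *ACAN* were counted in all 4 libraries. The DZC libraries differed more from each other than the SZC libraries did (chi-square over degrees of freedom 303 against 61.9), so that neither pair was 1 library deposited under 2 names.

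The antagonists did not share a direction. *WIF1* and *SFRP2* were higher in SZCs, by 41.2-fold and 31.3-fold, and *SFRP5* was higher in DZCs, by 6.17-fold. Of the 8 antagonists with enough counts to be tested, these 3 were called, whereas 2.93% of all tested genes were called. The study had already named *WIF1* as a superficial zone marker from these libraries, and the list was chosen with earlier results known. The calls are therefore not a test of the list. The share called higher in SZCs was 2.23% of all tested genes and the share called higher in DZCs was 0.7%. *FRZB* was 5.01-fold higher in DZCs by its fitted value, and missed the threshold. *SFRP1*, *DKK2* and *DKK3* had fitted values in favour of SZCs that also missed it, and *SFRP4* had overlapping zones. In 7 of the 8 genes the libraries of one zone lay above both libraries of the other, 5 of them with SZCs above. With only 2 libraries per zone this pattern is common, being found with SZCs above in 21% of all tested genes and with DZCs above in 20.5%. The median log2 fold change of the 8 genes was 1.21, against -0.04 over all tested genes. Without a block for replicate number, the quasi-likelihood test of edgeR called no gene at all, these 3 included. It gave 1126 genes an unadjusted p-value below 0.05. With that block it called 347 genes, these 3 among them. DESeq2 called 397 genes, with *SFRP2*, *SFRP5* and *FRZB* among them, whereas *WIF1* narrowly missed the threshold there (Wald test, FDR 0.053). In bulk RNA, fewer cells that express a gene and less RNA per cell cannot be told apart.

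**Figure D1:**
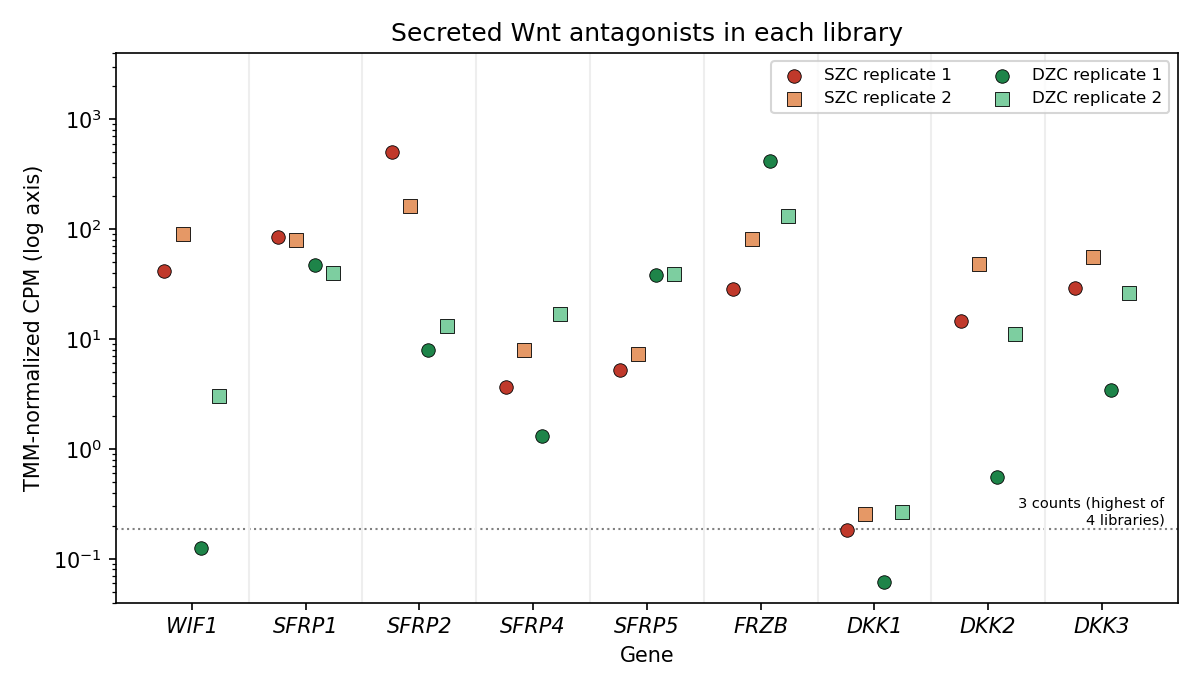
TMM-normalized CPM (log axis) of the 9 antagonists with a row in the count table, 1 symbol per library, with circles for replicate 1 and squares for replicate 2; the dotted line marks 3 counts in the library where that limit is highest, 0.187 CPM. *WIF1* and *SFRP2* are at least 12.2-fold higher in the lower SZC library than in the higher DZC library, *SFRP5* is reversed, and DZC replicate 1 lies far below DZC replicate 2 for *WIF1*, *SFRP4*, *DKK2* and *DKK3*.

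**Figure D2:**
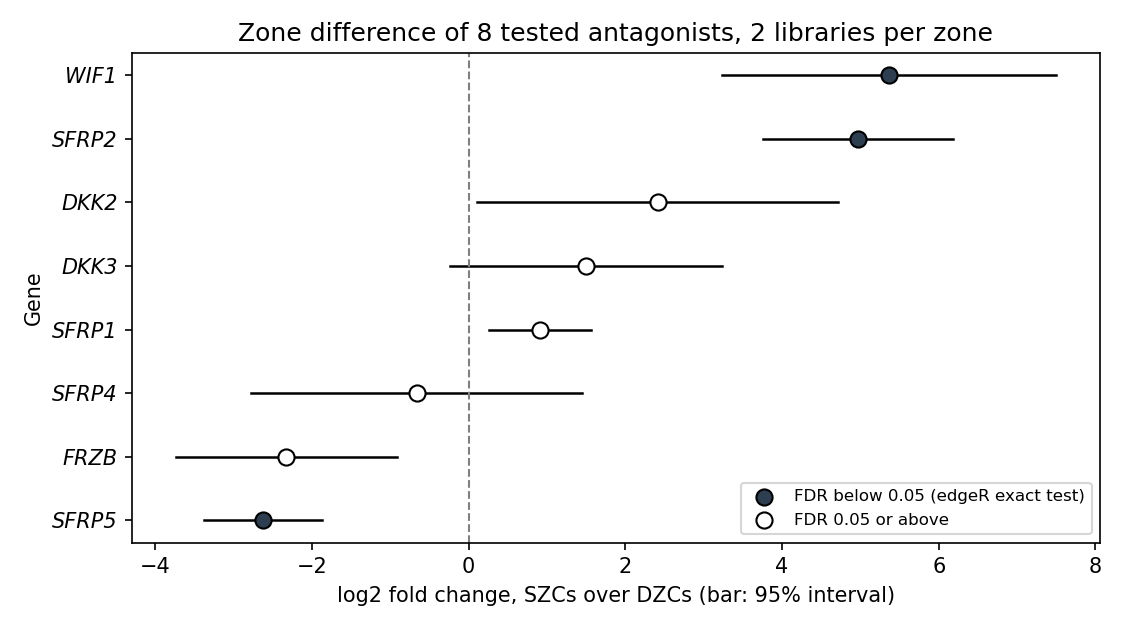
Log2 fold change of SZCs over DZCs for the 8 tested antagonists; bars are approximate 95% intervals from the standard error, and filled symbols are genes called at an FDR below 0.05 by edgeR's exact test. *WIF1* (5.36) and *SFRP2* (4.97) lie at the SZC end and *SFRP5* (-2.63) at the DZC end. The narrowest interval is that of *SFRP1* (0.25 to 1.57) and the widest is that of *DKK2* (0.11 to 4.72). The intervals are not adjusted for the number of genes tested. That of *DKK2* leaves out 0, although its unadjusted p-value was 0.0605 (exact test).

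*WIF1*, listed as ENSBTAG00000014758, was counted 919 and 2098 times in SZC replicates 1 and 2, and 2 and 68 times in DZC replicates 1 and 2. These counts are levels of 41.8 and 90.4 CPM in SZCs against 0.124 and 3.05 CPM in DZCs. The zones did not overlap, and the lower SZC library exceeded the higher DZC library by 13.7-fold. The log2 fold change was 5.36 ± 1.09 (SE; exact test, FDR 0.00404). This ranked 25th of all tested genes by size but 187th by p-value. The gene varied more between replicates than most, with a gene-wise dispersion above that of 97.7% of tested genes. Because DZC replicate 1 held only 2 counts, ratios against that library alone are imprecise. SZC replicate 1 exceeded it by 336-fold, with an exact 95% counting interval from 92.6 to 2775, and DZC replicate 2 exceeded it by 24.5-fold (6.53 to 206). Such intervals take in the error of counting alone, and reads copied by amplification are not separate molecules. With DZC replicate 1 left out the difference was 4.44 (log2; exact test, FDR 3.18e-12). Where a library is left out, the spread comes from the other zone's pair, so the lone library is taken to vary like that pair, and without a DZC library the FDR no longer takes in the spread between DZC libraries. With DZC replicate 2 left out it was 9.0, a value fitted against the library of 2 counts that depends on the prior count. The call was lost in the quasi-likelihood test of edgeR without a replicate block (FDR 0.256) and narrowly in DESeq2 (FDR 0.053). With the replicate block, *WIF1* passed the quasi-likelihood test at 5.79 (FDR 0.00252).

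*SFRP2* (ENSBTAG00000018563) encodes a Frizzled-related protein that is abundant in fibroblasts and connective tissue progenitors. It was counted 11063 and 3760 times in SZC replicates 1 and 2 and 127 and 296 times in DZC replicates 1 and 2. These counts correspond to 503 and 162 CPM in SZCs and to 7.90 and 13.3 CPM in DZCs. Each SZC library was above both DZC libraries, by 12.2-fold at the narrowest. The fitted log2 fold change was 4.97 ± 0.62 (SE; exact test, FDR 7.21e-09), which ranked 23rd of all tested genes by p-value. Without SZC replicate 1 it was 3.93 and without SZC replicate 2 it was 5.57, and the call held in both. The order of the replicates was opposite to that of *WIF1* in SZCs. Replicate 1 had 3.1-fold more *SFRP2* than replicate 2, and replicate 2 had 2.16-fold more *WIF1* than replicate 1.

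*SFRP5* (ENSBTAG00000018566), a close relative of *SFRP1* by sequence, showed the reverse of *SFRP2*. Its level was 5.22 and 7.32 CPM in SZC replicates 1 and 2 and 38.1 and 39.4 CPM in DZC replicates 1 and 2, from 115, 170, 612 and 880 counts. Both DZC libraries were above both SZC libraries, by 5.20-fold at the narrowest, and they differed from each other by only 1.04-fold. Its log2 fold change of -2.63 ± 0.38 (SE) passed with an FDR of 4.23e-08 (exact test). Leaving out any library kept it between -2.89 and -2.41. The call was lost without SZC replicate 1, where the FDR was 0.158 (exact test on 3 libraries).

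*SFRP1* (ENSBTAG00000027625) was the steadiest of the family. It was at 83.9 and 79.9 CPM in SZC replicates 1 and 2 and at 47.3 and 39.9 CPM in DZC replicates 1 and 2, so the zones did not overlap. The log2 fold change was 0.91 ± 0.33 (SE), with an approximate 95% interval from 0.25 to 1.57. The exact test gave an unadjusted p-value of 0.00722 and an FDR of 0.155. Only 3.04% of tested genes had a smaller dispersion. It passed without DZC replicate 1 (1.04, exact test FDR 0.0163) and without DZC replicate 2 (0.81, exact test FDR 0.0396), but not without SZC replicate 1 (0.87) or SZC replicate 2 (0.94), where the exact test gave an FDR of 1. With libraries scaled by their totals alone, *SFRP1* also passed, at 1.24 (exact test, FDR 0.0391). That scaling also moved the median of all tested genes by 0.30, and relative to the median *SFRP1* stood at 0.95 with TMM and at 0.98 with totals.

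*FRZB* (ENSBTAG00000010977) was counted 631 and 1881 times in SZC replicates 1 and 2 and 6720 and 2949 times in DZC replicates 1 and 2. Its level was 28.7 and 81.0 CPM in SZCs against 418 and 132 CPM in DZCs. Both DZC libraries lay above both SZC libraries, with the closest pair 1.63-fold apart. Its fitted difference of -2.33 ± 0.72 (log2, SE) missed the threshold, at an FDR of 0.0728 (exact test). *FRZB* passed in DESeq2 (FDR 0.0144) and did not in the quasi-likelihood test of edgeR (FDR 0.434). The ratio of replicates ran in opposite directions in the zones, since replicate 2 was 2.83-fold above replicate 1 in SZCs and replicate 1 was 3.16-fold above replicate 2 in DZCs. With SZC replicate 2 left out, the difference was -3.27 (exact test, FDR 0.0377). It was -2.91 without DZC replicate 2 (exact test, FDR 1.76e-08) and -1.26 without DZC replicate 1 (exact test, FDR 0.141). Without SZC replicate 1 it was -1.77 (exact test, FDR 1).

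*SFRP4* (ENSBTAG00000015366), known for its role in bone and found in many connective tissues, was the only tested antagonist whose zones overlapped. It was at 3.63 and 7.88 CPM in SZC replicates 1 and 2, and the DZC libraries lay on either side of these values, at 1.31 and 16.9 CPM. The log2 fold change was -0.66 ± 1.08 (SE; exact test, FDR 1), with an approximate 95% interval from -2.78 to 1.45. Its sign was not stable, being 2.15 without DZC replicate 2 (exact test, FDR 0.0182) and -1.55 without DZC replicate 1 (exact test, FDR 0.0316). With all libraries kept, blocking on replicate number gave 0.064 (quasi-likelihood test of edgeR, FDR 0.978).

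*DKK2* (ENSBTAG00000012969) was at 14.6 and 48.3 CPM in SZC replicates 1 and 2 and at 0.560 and 11.2 CPM in DZC replicates 1 and 2. Both SZC libraries were above both DZC libraries, but SZC replicate 1 exceeded DZC replicate 2 by only 1.31-fold. For *DKK2* the log2 fold change was 2.41 ± 1.17 (SE; exact test, FDR 0.605), and the dispersion was above that of 98.6% of tested genes. *DKK3* (ENSBTAG00000004275) encodes a divergent member of the family whose part in Wnt signalling is less settled. It was at 29.1 and 55.7 CPM in SZC replicates 1 and 2 and at 3.42 and 26.4 CPM in DZC replicates 1 and 2, with the closest SZC and DZC libraries 1.1-fold apart. Its log2 fold change was 1.5 ± 0.89 (SE; exact test, FDR 0.744). Both genes passed once DZC replicate 2 was left out, at 5.81 and 3.64 (exact test, FDR 2.3e-11 and 9.25e-12), and with no other library left out. That fit no longer holds the spread between the DZC libraries. With all libraries and the replicate number as a block, *DKK2* passed at 3.11 and *DKK3* did not at 2.02 (quasi-likelihood test of edgeR, FDR 0.0225 and 0.0579). The approximate 95% intervals, 0.11 to 4.72 for *DKK2* and -0.23 to 3.24 for *DKK3*, include differences as large as that of *SFRP5*. The *DKK2* interval leaves out 0, whereas the exact test gave this gene an unadjusted p-value of 0.0605. *DKK1* (ENSBTAG00000014218) had 4 and 6 counts for SZCs against 1 and 6 for DZCs, too few to be tested, and no difference between the zones was detectable at this depth.

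For 4 antagonists the DZC libraries stood far apart. As a library, DZC replicate 1 had 14683 genes detected, against 15842 to 16058 in the other libraries. Its TMM factor was 0.735, against 1.08 to 1.14 in the others. In DZC replicate 2, *WIF1* was 24.5-fold, *DKK2* 20.01-fold, *SFRP4* 12.9-fold and *DKK3* 7.73-fold above DZC replicate 1. A ratio of at least 7 in this direction, a limit set after these values were seen, was found in 4.08% of all tested genes. Between the SZC libraries, SZC replicate 2 reached that ratio over SZC replicate 1 in 0.544% of tested genes and in 0 of the 8 antagonists. *SFRP5*, *SFRP1* and *SFRP2* differed between the same libraries by 1.04-fold, 1.19-fold and 1.68-fold. *FRZB* went the other way, 3.16-fold higher in DZC replicate 1 than in DZC replicate 2. The sum of the 8 chondrocyte markers moved with this split in the opposite direction. It came to 485946 CPM in DZC replicate 1 and 188467 CPM in DZC replicate 2. In SZC replicates 1 and 2 it was 120684 and 123310 CPM. *COL2A1* was 2.8-fold, *ACAN* 2.77-fold and *SOX9* 2.57-fold higher in DZC replicate 1 than in DZC replicate 2. *MATN3* was the exception, at 186 CPM in DZC replicate 1 and 334 CPM in DZC replicate 2. It was the only one of the 8 called between the zones, and was higher in DZCs (exact test, FDR 0.00212). The 6 superficial zone markers summed to 97.2 CPM in DZC replicate 1 and 172 CPM in DZC replicate 2. *PRG4*, *EPHA3*, *THBS4* and *CREB5* were higher in DZC replicate 2, *PRG4* by 4.02-fold and *EPHA3* by 5.94-fold, and *VIT* and *GDF5* were higher in DZC replicate 1. Most markers of other cell types were lower in DZC replicate 1. The 7 fibroblast markers examined (*COL1A1*, *COL1A2*, *COL3A1*, *THY1*, *PDGFRA*, *PDPN* and *FAP*) summed to 4419 CPM in DZC replicate 1 and 14102 CPM in DZC replicate 2, against 17037 and 25224 CPM in the SZC libraries, and none of the 7 was called between the zones. *PDPN* alone among them was highest in DZC replicate 1. The 8 markers of hypertrophic chondrocytes and osteoblasts, among them *COL10A1*, *ALPL* and *MMP13*, summed to 4.23 CPM in DZC replicate 1, 71.4 CPM in DZC replicate 2 and 4.32 and 7.24 CPM in the SZC libraries. *MMP13* was at 0 counts in every library other than DZC replicate 2. *PHOSPHO1* went the other way, at 4.04 CPM in DZC replicate 1 and 2.2 CPM in DZC replicate 2, and *BGLAP* and *DMP1* had at most 1 count in either. The 5 endothelial markers summed to between 3.86 and 10.6 CPM and the 5 immune markers to between 6.35 and 27.2 CPM, both lowest in DZC replicate 1. The sum of the 5 smooth muscle and pericyte markers, 2009 to 2553 CPM, was mostly *CSPG4*, and the other members were higher in DZC replicate 2 than in DZC replicate 1, such as *ACTA2* at 311 against 53.2 CPM. *HBB*, a red blood cell marker, was at 0 in all libraries. The part of any of these markers' cells in the antagonists' values was not tested.

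**Figure D3:**
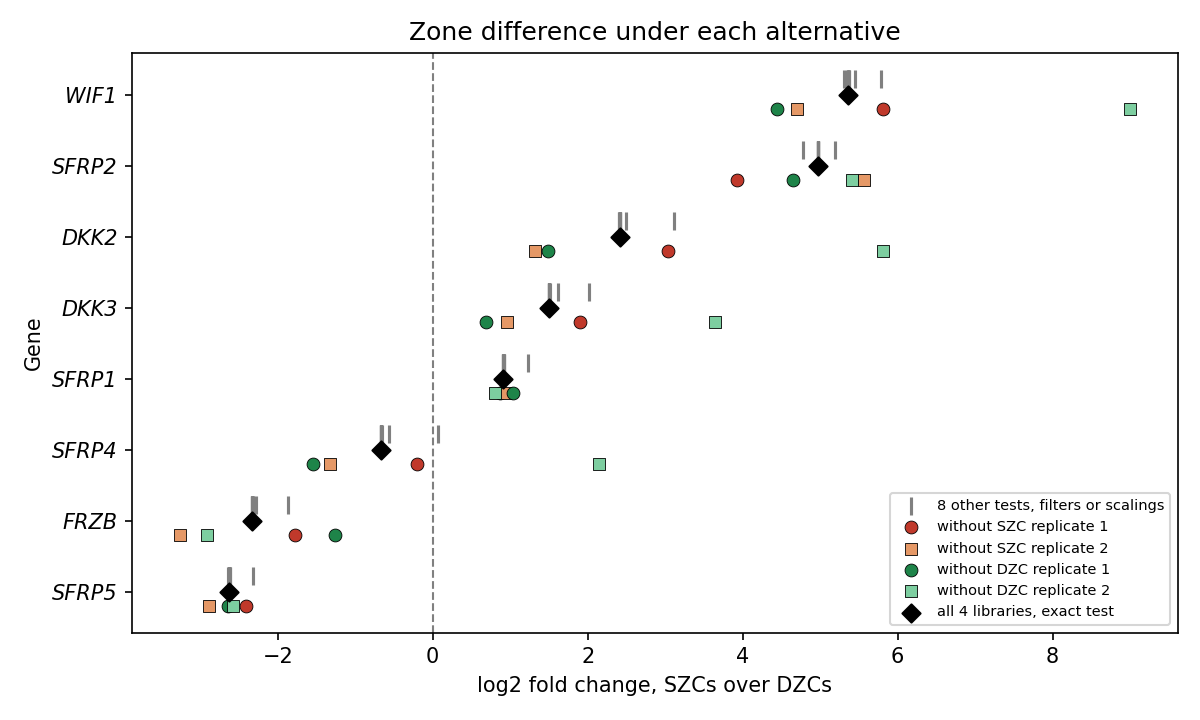
Log2 fold change of SZCs over DZCs for the 8 tested antagonists with all libraries (black diamonds), under 8 other tests, filters or scalings (grey ticks, offset above), and with each library left out (coloured symbols, offset below). Leaving out DZC replicate 2 moves *WIF1* to 9.0, *DKK2* to 5.81 and *DKK3* to 3.64, and turns *SFRP4* to 2.15.

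The make-up of the antagonist counts differed between the zones. Together the 9 genes came to 710 and 533 CPM in SZC replicates 1 and 2 and to 517 and 283 CPM in DZC replicates 1 and 2, so that the lower SZC library lay just above the higher DZC library. *SFRP2* held 70.8% of these counts in SZC replicate 1 (exact 95% binomial interval 70.1% to 71.5%) and 30.4% in SZC replicate 2 (29.6% to 31.2%), but 1.53% and 4.69% in DZC replicates 1 and 2. *FRZB* held 4.04% and 15.2% in SZC replicates 1 and 2, and 80.9% (80.0% to 81.7%) and 46.8% (45.5% to 48.0%) in DZC replicates 1 and 2. *SFRP5* went from at most 1.37% in SZCs to 7.37% and 14.0% in DZC replicates 1 and 2, and *WIF1* from 5.88% and 17.0% in SZC replicates 1 and 2 to 0.0241% and 1.08% in DZC replicates 1 and 2. *SFRP1* held a similar share everywhere, from 9.15% to 15.0%. The intervals take in the error of counting within a library alone, and for *SFRP2* in SZCs and *FRZB* in DZCs the replicates lay much further apart. Shares of a gene can be compared between libraries, whereas shares of different genes also reflect transcript length, which was not used here.

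**Figure D4:**
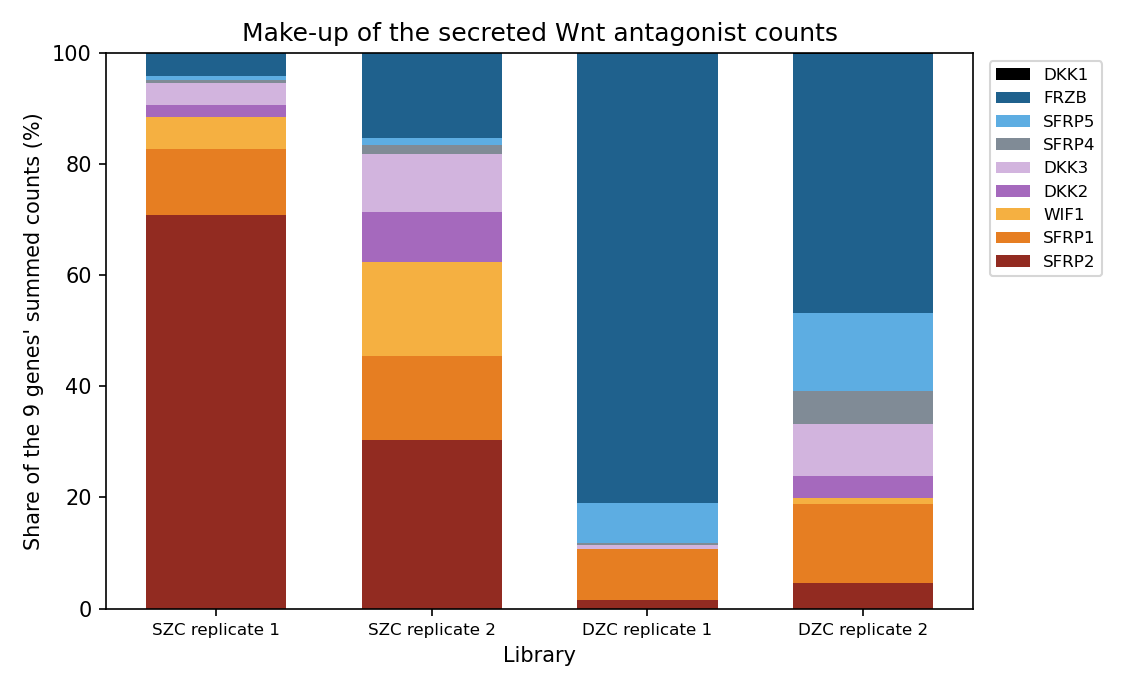
Share of the summed counts of the 9 antagonists (percent, stacked to 100) held by each gene in each library; segments of different genes also reflect their transcript lengths. *SFRP2* is the largest segment of both SZC bars (70.8% and 30.4%), and *FRZB* of both DZC bars (80.9% and 46.8%). *WIF1* is larger in the SZC bars and *SFRP5* in the DZC bars, while *SFRP1* holds from 9.15% to 15.0% of every bar.

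Ratios of 2 genes within a library do not depend on how libraries are scaled. The log2 ratio of *SFRP2* to *SFRP5* counts was 6.59 and 4.47 in SZC replicates 1 and 2 and -2.27 and -1.57 in DZC replicates 1 and 2, a difference of 7.45 between the zone means. For *SFRP1* over *SFRP5* it was 4.0 and 3.45 in SZCs and 0.31 and 0.02 in DZCs. The zone means of this ratio differed by 3.56. *WIF1* over *FRZB* gave 0.54 and 0.16 in SZCs and -11.71 and -5.44 in DZCs. The ratios share genes and mostly pair genes whose zone difference is described above, so they are not separate evidence. With 2 libraries per zone, values in random order would separate by zone with a chance of 0.333. Of the 10 ratios computed, chosen after the counts had been seen, 2 overlapped between the zones. These were *SFRP5* over *FRZB*, at -2.46 and -3.47 in SZCs and -3.46 and -1.74 in DZCs, and *WIF1* over *SFRP2*, at -3.59 and -0.84 in SZCs and -5.99 and -2.12 in DZCs.

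The genes with a pattern most like *WIF1* over the 4 libraries were found by the root mean square difference of log2(CPM + 0.5) values centred on each gene's mean. The nearest was *PTX3*, a secreted pentraxin of innate immunity, at a distance of 0.39, with 48.5 and 208 CPM in SZC replicates 1 and 2 and 0.747 and 4.44 CPM in DZC replicates 1 and 2. It was followed by the receptor tyrosine kinase gene *EPHA3* (0.47), which is also among the superficial zone markers, the matrix gene *ABI3BP* (0.50), ENSBTAG00000048157, which the files do not name (0.56), and *IGSF10* (0.65). All 5 were low in DZC replicate 1 relative to DZC replicate 2, which follows from choosing them by likeness to *WIF1*. Of the other antagonists, *SFRP2* (1.2) and *DKK2* (1.28) came nearest to *WIF1*, at positions 33 and 39 among the tested genes, and *DKK3* followed at 134. *SFRP5* (4.07) and *FRZB* (4.10) were among the farthest, at positions 12826 and 12830. With 4 libraries, this likeness is a description only.

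Around the antagonists, other Wnt pathway genes were examined in 7 lists. Of 89 genes listed, 80 had a row and 59 could be tested, and 8 of these were called, 6 higher in SZCs and 2 higher in DZCs. Over all tested genes, 2.93% were called, 2.23% higher in SZCs and 0.7% higher in DZCs. The median log2 fold change of the 59 genes was 0.12. Among Wnt ligands and the genes for their secretion, *WNT11*, a ligand best known for signalling without beta-catenin, was at 57.3 and 20.8 CPM in SZC replicates 1 and 2 and at 6.47 and 3.68 CPM in DZC replicates 1 and 2. This was a log2 fold change of 2.95 ± 0.60 (SE; exact test, FDR 0.000667). *WLS*, which encodes the carrier that takes Wnt proteins to the cell surface, was higher in DZCs, at 526 and 385 CPM in DZC replicates 1 and 2 against 114 and 125 CPM in SZC replicates 1 and 2. It was 3.82-fold higher there, or -1.93 ± 0.37 on the log2 scale (SE; exact test, FDR 9.55e-05). *WNT2B*, the ligand with the largest log2 fold change in favour of DZCs, missed the threshold with 3, 14, 14 and 297 counts in SZC replicates 1 and 2 and DZC replicates 1 and 2. It passed in DESeq2, in the blocked quasi-likelihood test, with common and then tagwise dispersions and without DZC replicate 1. Of the 18 genes of this list with a row, 6 had enough counts to be tested.

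Among the receptors that the antagonists compete for or bind, *FZD8* and *FZD10* were called of 13 Frizzled and other Wnt receptor genes tested, both higher in SZCs. *FZD8* was at 27.5 and 25.6 CPM in SZC replicates 1 and 2 and at 4.35 and 9.10 CPM in DZC replicates 1 and 2, a 3.93-fold difference (exact test, FDR 0.00558). *FZD10* had few counts, with 43 and 34 for SZCs against 3 and 6 for DZCs (exact test, FDR 0.025). The most counted gene of that list, *RYK*, stood at -0.32 ± 0.34 on the log2 scale (SE). The receptors of the Dickkopf proteins and sclerostin gave no call among 3 tested genes, and *LRP6* stood at 0.16 ± 0.46 (log2, SE). The other extracellular Wnt inhibitors gave none among 5. *IGFBP4*, the most counted of them, had a log2 fold change of -0.09, and *SOSTDC1* one of -2.17 with 3 and 12 counts in SZCs and 17 and 43 counts in DZCs (exact test, FDR 0.303).

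R-spondins are secreted proteins that strengthen Wnt signalling through the LGR receptors, and *RSPO3* was higher in DZCs, at 14.7 and 9.55 CPM in DZC replicates 1 and 2 against 0.5 and 1.29 CPM in SZC replicates 1 and 2. This 13.4-fold difference (log2 fold change -3.75 ± 0.65, exact test, FDR 2.42e-05) was the only call among 5 tested genes of that list. *RSPO2* went the other way and missed the threshold (log2 fold change 2.46, exact test, FDR 0.112). It was at 2.09 and 6.55 CPM in SZC replicates 1 and 2 and at 0.56 and 0.986 CPM in DZC replicates 1 and 2. *LGR4*, the most counted gene of the list, had a log2 fold change of 0.71. None of 15 genes that carry the signal to beta-catenin was called, and *CTNNB1*, which encodes beta-catenin itself, stood at -0.24 ± 0.47 (log2, SE). Of 12 tested targets and feedback genes, *AXIN2*, *DACT1* and *BAMBI* were called, all higher in SZCs. *AXIN2*, a feedback inhibitor and widely used readout of beta-catenin signalling, was at 27.2 and 26.0 CPM in SZC replicates 1 and 2 and at 10.5 and 8.43 CPM in DZC replicates 1 and 2 (log2 fold change 1.5; exact test, FDR 0.00728). *MYC*, the most counted gene of that list, stood at 0.48 ± 0.41 (log2, SE). *DACT1* was 2.61-fold and *BAMBI*, which encodes a decoy receptor for TGF-beta family signals, 3.46-fold higher in SZCs (exact test, FDR 0.0207 and 0.0224). Without SZC replicate 1 the exact test kept none of the 8 pathway calls, and without SZC replicate 2 only those of *RSPO3* and *WNT11*. Without DZC replicate 2 it called 20 of the pathway genes, and 2725 of all 13144 genes tested. *DACT1*, *BAMBI* and *FZD10* did not pass with the replicate number as a block or with common and then tagwise dispersions, nor did *FZD10* in DESeq2 or *BAMBI* with library totals alone.

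**Figure D5:**
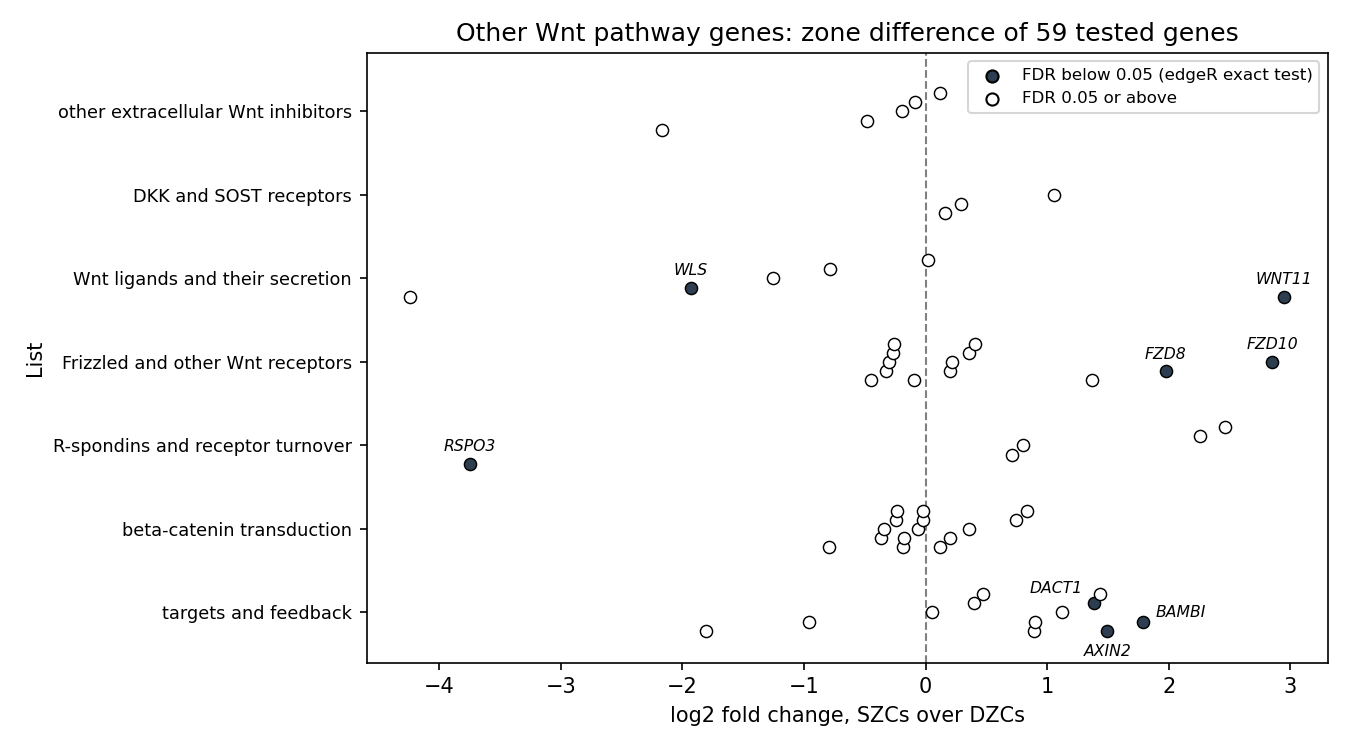
Log2 fold change of SZCs over DZCs for the 59 tested genes of the 7 other Wnt pathway lists, 1 symbol per gene, with the 8 genes called at an FDR below 0.05 by edgeR's exact test filled and named. The called genes lie on both sides, from *RSPO3* (-3.75) and *WLS* (-1.93) to *FZD10* (2.85) and *WNT11* (2.95), and the list of beta-catenin transduction stays between -0.79 and 0.83.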

How the data were processed

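RNA-Seq counts of 4 libraries were used. The authors aligned reads with STAR 2.5.2b to Ensembl build UMD 3.1 version 88, counted them per gene ignoring strand, and deposited raw counts, so reads of overlapping genes cannot be separated. A deposited table of the authors' test results holds log2 fold changes and adjusted p-values (FDR); only 8 gene names were taken from it. SZC and DZC libraries were compared in edgeR 4.0.16 under R 4.3.3 (filterByExpr with a minimum count of 10, TMM, estimateDisp, exact test as in the paper's methods). Standard errors came from the negative binomial model. Scripts were tested on simulated data. Alternatives were the quasi-likelihood test with and without the replicate number as a block, DESeq2 1.42.0, 2 other filters, 2 other scalings, another dispersion estimate and each library left out. Columns were matched to libraries by name.

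The antagonists and lists were chosen with earlier results of these data known. Named are all antagonists, other Wnt genes that were called, the most counted gene of each list, the 5 genes most like *WIF1*, and check genes. *WNT2B*, *SOSTDC1*, *RSPO2* and the marker genes were named after their values were seen. Neither sequences nor coordinates of the genes were used, since the reference table is of another assembly. ATAC-Seq was not analysed here.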

Additional observations from a re-analysis of the deposited data

How the results depend on the processing

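The exact test called 377 genes between the zones. With edgeR's quasi-likelihood test and no block, 0 genes passed (0 higher in SZCs, 0 higher in DZCs, 0 antagonists, 0 other Wnt genes), while 1126 had an unadjusted p-value under 0.05 and DESeq2 called 397. The quasi-likelihood test without a block gave log2 fold changes of 5.32 for *WIF1*, 4.97 for *SFRP2* and -2.63 for *SFRP5* (FDR 0.256, 0.129 and 0.109). In DESeq2 *WIF1* missed the threshold at 5.37 and *FRZB* passed at -2.33, as *FRZB* also did at -2.33 with common and then tagwise dispersions. With library totals alone *SFRP1* passed at 1.24, and the share of calls higher in SZCs went from 76.1% to 86.7%, with 288 in place of 287 genes higher in SZCs and 44 in place of 90 higher in DZCs. That scaling moved the median of all tested genes by 0.30 towards SZCs. The causes of the other changes were not tested. Under the 2 other filters and the other size factors *WIF1*, *SFRP2* and *SFRP5* were called and the other 5 tested antagonists were not.

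No source says that same-numbered libraries share a joint. Deviations of same-numbered libraries had a correlation of 0.42 across genes. Blocking on the replicate number gave 347 calls in the quasi-likelihood test, where *DKK2* passed at 3.11 (FDR 0.0225) and *SFRP4* reversed to 0.064 (FDR 0.978), both in edgeR. *WIF1*, *SFRP2* and *SFRP5* also passed in that blocked test.

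With each library left out in turn, between 58 and 2725 genes were called, 52 to 1607 higher in SZCs and 6 to 1118 higher in DZCs, with 2 to 8 antagonists and 0 to 20 other Wnt genes. The lowest counts came without SZC replicate 1 and the highest without DZC replicate 2. The log2 fold change ranged from 0.81 to 1.04 for *SFRP1*, from -1.55 to 2.15 for *SFRP4*, from -2.89 to -2.41 for *SFRP5*, from -3.27 to -1.26 for *FRZB*, from 1.31 to 5.81 for *DKK2* and from 0.69 to 3.64 for *DKK3*. *WIF1* and *SFRP2* passed in all 4 cases.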
